A study of Lactuca sativa with 6 samples.

Results

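The comparison of LsCv with LsSq sets leaves of lettuce (Lactuca sativa) seedlings that received an extract of the green microalga Chlorella vulgaris (LsCv) beside leaves of seedlings that received an extract of the green microalga Scenedesmus quadricauda (LsSq). It uses 4 of the 6 libraries of the series, 2 for each extract, and the other 2 come from untreated seedlings (LsCK). Nursery seedlings at the stage of a few true leaves were kept in boxes of inert substrate in a growth chamber. After acclimatization, LsCv and LsSq boxes were irrigated with Hoagland nutrient solution that held the extract at 1 mg of organic carbon per litre, and LsCK boxes with Hoagland solution alone. Leaves were collected 4 days later. All plants were thus fed with the same mineral solution, and by design LsCK differed from the other groups in the extract alone. The question asked of LsCv against LsSq is which transcripts set the extracts apart when the dose of organic carbon is equal.

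Expression was counted on clusters of transcripts assembled de novo from the reads of the study, each standing for a gene or a group of near-identical transcripts. Of the 39253 clusters of the table, 28157 had enough counts to be tested, and they are the clusters compared here. A cluster was described as set apart where it met 3 limits together: an unadjusted p under 0.05 in edgeR's quasi-likelihood test, no overlap between the LsCv and the LsSq libraries, and a log2 fold change of 1.5 or more in either direction. The rule gave 2101 clusters, of which 752 were higher and 1349 were lower in LsCv. Most of them carry no gene name in the sources used here. Names were at hand for the phytohormone clusters that the study listed and for its qRT-PCR clusters, so the named results below are about hormones.

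Microalgal extracts are used as biostimulants in horticulture, and much of the interest in them comes from hormone-like effects on plants. Cytokinins are adenine-derived hormones that promote cell division and delay leaf senescence. They are made from adenine nucleotides by isopentenyltransferases (IPT), hydroxylated by cytochrome P450 enzymes to the zeatin type, released as active bases by LONELY GUY (LOG) enzymes and stored as O-glucosides. Auxin is made from tryptophan in a last step catalysed by YUCCA monooxygenases and is moved between cells by transporters. Small secreted peptides, read by leucine-rich repeat receptor kinases on the cell surface, add a further layer of signals that pattern stomata and vascular tissue.

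The sequences used by the study to measure a member of the set-apart clusters are those of the qRT-PCR primers of an F-box cluster (Cluster-15937.0), which took no count in either LsCv library. They are shown together with the primers of its reference cluster (Cluster-15809.13020, a chloroplastic ribosomal RNA small subunit methyltransferase), which was steady between the extracts. All are printed 5′ to 3′.
F-box, forward primer: gaagccaaggccagttggtt
F-box, reverse primer: ccggcccagctttcataagt
Reference cluster, forward primer: ctttctcgtgtgccatgacg
Reference cluster, reverse primer: gccaacaacaacacctccgt

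Libraries held 26408716 to 35184764 counts in total. Levels are given in CPM, the counts of a cluster relative to the library total after TMM scaling between libraries, and 3 counts corresponded to 0.0857 to 0.111 CPM. The clusters that the study's supplementary list describes by a green alga summed to 0 counts in all 4 LsCv and LsSq libraries and in LsCK1, and to 2285 counts over 42 clusters in LsCK2. The 460 clusters described by an animal protein summed to 53.6 to 59.5 counts in the LsCv libraries, 43.4 to 49.0 in the LsSq libraries, 57.0 in LsCK1 and 20972 in LsCK2, or 794 CPM of that library before scaling. None of these clusters was set apart between the extracts, but hardly any could have been. The alga clusters had 0 counts under both extracts, and 1 of the 460 animal clusters had counts in each treated library. The study chose its list for a change from LsCK of like direction under both extracts. The part of RNA with these descriptions in the place that LsCK2 takes below was not tested. The leaf label could not be checked, because 0 clusters of the list carried the photosynthesis descriptions chosen as leaf markers. Fewer cells of a type and less RNA per cell cannot be told apart in these bulk libraries, and nothing in the labels says that the 2 libraries of a group came from separate boxes, so that the p-values measure the spread between these libraries only.

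In edgeR's test of all 6 libraries no cluster differed between LsCv and LsSq after adjustment. In that fit 0 of 28157 clusters had an adjusted p of 0.05 or less (0% of those tested), and the smallest adjusted p was 0.158. At an unadjusted p under 0.05 there were 4496 clusters, 1763 higher in LsCv (6.26%) and 2733 lower (9.71%). DESeq2 fitted on the 4 treated libraries alone called 2832 of 26189 clusters at an adjusted p of 0.05 or less (10.8%), 1574 higher and 1258 lower in LsCv, and DESeq2 on all 6 libraries called 1468, 667 higher and 801 lower. Leaving out any 1 of the 6 libraries gave 0 calls with edgeR. A replicate block in the same test gave 0 calls on all 6 libraries and 1135 on the 4 treated libraries (611 higher and 524 lower), although the labels do not say that a number pairs the libraries. The number of clusters called therefore depended on the tool, the libraries in the fit and the replicate block, and the set-apart clusters are a description of these libraries. For 2 libraries against 2, the smallest two-sided p of an exact permutation test on any 1 cluster is 0.333.

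The replicates of LsCv lay farther apart than those of LsSq. On log2(CPM + 0.5), the typical distance between replicates (median of the absolute log2 ratio) was 0.47 in LsCv, 0.27 in LsSq and 0.50 in LsCK. Between libraries of different extracts the median was 0.51 to 0.59, only slightly more than within LsCv. Spearman's correlation across the 28157 clusters was 0.942 between the LsCv replicates and 0.975 between the LsSq replicates, and it was 0.911 to 0.943 between LsCv and LsSq libraries, as a description over clusters that share their libraries. LsCK1 was nearest to LsCv2 (0.960) and LsCK2 nearest to LsSq2 (0.960), while LsCK1 and LsCK2 reached 0.926 with each other. The controls were thus less like each other than each was to a library of one of the extracts. Of all clusters tested, 55.4% had no overlap between the LsCv and LsSq libraries, 6775 with LsCv higher and 8818 with LsCv lower, so that lack of overlap alone set few clusters apart from the rest.

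The clusters set apart made up 7.46% of those tested, 2.67% being higher in LsCv and 4.79% lower. Direction was sensitive to scaling and to the libraries in the fit. With TMM over all 6 libraries 35.8% of the set-apart clusters were higher in LsCv. This share was 41.5% (851 higher and 1202 lower) with DESeq2's size factors, 27.6% (600 higher and 1577 lower) with library totals alone and 46.2% (997 higher and 1161 lower) in an edgeR fit of the 4 treated libraries. Library totals alone moved the median log2 fold change of all clusters to -0.20, against -0.06 with TMM. Lower clusters outnumbered higher ones in every one of these edgeR fits, whereas DESeq2 on the 4 treated libraries called more that were higher, and at an unadjusted p under 0.05 the edgeR fit of those 4 libraries had 2954 higher and 2848 lower clusters. Of the 752 higher clusters 75.9% were among the calls of that DESeq2 fit, and of the 1349 lower clusters 59.7%.

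Most of the set-apart clusters changed by moderate folds. The median log2 fold change was 2.19 among the higher clusters (quartiles 1.79 and 2.89) and -2.13 among the lower ones (quartiles -3.35 and -1.77), beside a median absolute value of 0.59 over all clusters tested. Among the higher clusters 573 lay between 1.5 and 3 on the log2 scale, 111 between 3 and 5 and 68 at 5 or more. Among the lower clusters the numbers were 967, 150 and 232, so that the lower side had the longer tail (17.2% at 5 or more, against 9.04% on the higher side). Most of that tail was made of clusters without any count in the lower extract, 217 of 232 on the lower side and 47 of 68 on the higher side, whose fitted fold change depends on the prior count and is no bound.

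The directions also differed in expression level. The median of the mean CPM over the 4 treated libraries was 7.72 for the higher clusters and 3.71 for the lower ones, against 9.01 for all clusters tested. Below 1 CPM 2.11% of the clusters tested were set apart with LsCv higher (118 of 5590) and 6.15% with LsCv lower (344). Between 1 and 10 CPM the shares were 3.28% (295 of 9003) and 6.89% (620), and between 10 and 100 CPM 2.31% (264 of 11427) and 2.99% (342). At 100 CPM or more the order turned, with 3.51% higher (75 of 2137) and 2.01% lower (43). The share of clusters higher in LsCv was thus between 2.11% and 3.51% at every level, while the share lower in LsCv was largest below 10 CPM. In abundance the higher clusters took 4.50% and 4.10% of the counts of LsCv1 and LsCv2, against 1.11% and 1.25% of LsSq1 and LsSq2, and the lower clusters took 0.581% and 1.03% in LsCv, against 3.45% and 3.40% in LsSq. Counts that were not whole, which mark reads shared with other clusters, occurred in 37.8% of the higher and 20.2% of the lower clusters, beside 39.1% of all tested, and for such clusters the division of reads between near-identical transcripts is uncertain.

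**Figure D1:**
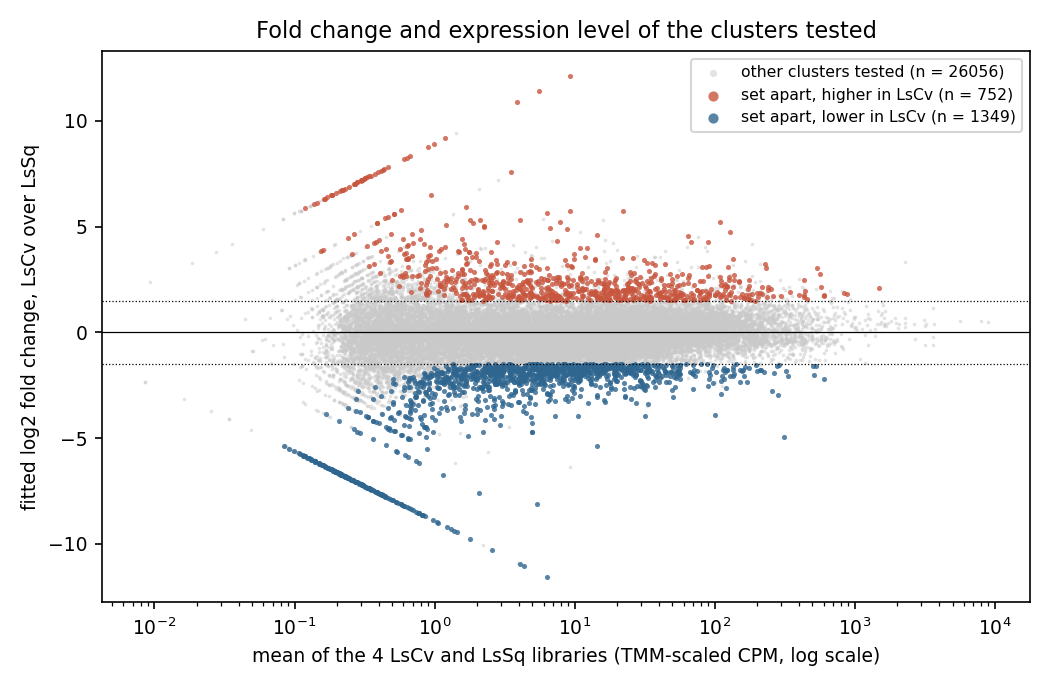
Fitted log2 fold change of LsCv over LsSq (vertical axis) against the mean of the 4 treated libraries (horizontal axis, TMM-scaled CPM on a log scale), 1 point per cluster; dotted lines mark 1.5 in either direction. The 752 clusters set apart with LsCv higher reach the highest levels, and the straight lower edge of the 1349 clusters lower in LsCv is formed by those without counts in LsCv.

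**Figure D2:**
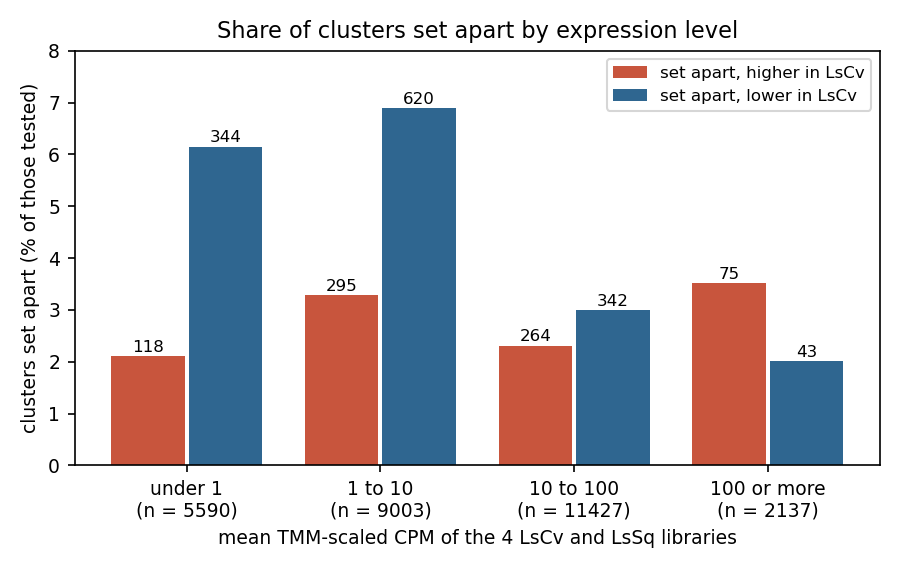
Share of the clusters tested that were set apart (vertical axis, %), by mean TMM-scaled CPM of the 4 treated libraries (horizontal axis, with the number tested); numbers on the bars are clusters. Below 10 CPM the share lower in LsCv (6.15% and 6.89%) stands above the share higher in LsCv (2.11% and 3.28%), and at 100 CPM or more it is below it (2.01% against 3.51%).

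Each untreated library was then placed beside the extracts, cluster by cluster. A library was taken to lie with LsCv where it was at or past the LsCv replicate nearest to LsSq, with LsSq where it was at or past the LsSq replicate nearest to LsCv, and between them otherwise. Where LsCv was higher, LsCK1 lay with LsCv in 284 of 752 clusters (37.8%, 95% Wilson interval 34.4 to 41.3%), between the extracts in 450 (59.8%) and with LsSq in only 18 (2.39%). LsCK2 lay with LsCv in 125 (16.6%), between in 328 (43.6%) and with LsSq in 299 (39.8%, interval 36.3 to 43.3%). On a line where 0 is the LsSq mean and 1 the LsCv mean, the median position was 0.70 for LsCK1 and 0.22 for LsCK2. The untreated libraries were placed differently, and this was not particular to the set-apart clusters: over all 6775 clusters in which LsCv lay above LsSq without overlap, whatever the fold and p, LsCK1 lay with LsCv in 47.6% and LsCK2 with LsSq in 57.5%. These shares depend on both replicates of an extract, since LsCK1 lay with LsCv in 5.79% of the higher clusters without LsCv replicate 1 and in 3.27% without LsCv replicate 2, and LsCK2 lay with LsSq in 11.7% without LsSq replicate 1 and in 6.23% without LsSq replicate 2.

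Where LsCv was lower, LsCK1 lay with LsCv in 252 of 1349 clusters (18.7%, interval 16.7 to 20.8%), between in 838 (62.1%) and with LsSq in 259 (19.2%). LsCK2 lay with LsCv in 67 (4.97%), between in 740 (54.9%) and with LsSq in 542 (40.2%, interval 37.6 to 42.8%). The median positions were 0.55 for LsCK1 and 0.21 for LsCK2. Over all 8818 clusters in which LsCv lay below LsSq without overlap, LsCK1 lay with LsCv in 42.9% and with LsSq in 22.8%, and LsCK2 in 20.9% and 47.6%. A limit on the fold selects wide gaps, in which a library more readily lies between the extracts. In both directions LsCK2 was the control closer to LsSq, as it was over all clusters. The intervals cover counting error over clusters only, which are not independent, and reads carried no molecular identifiers.

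**Figure D3:**
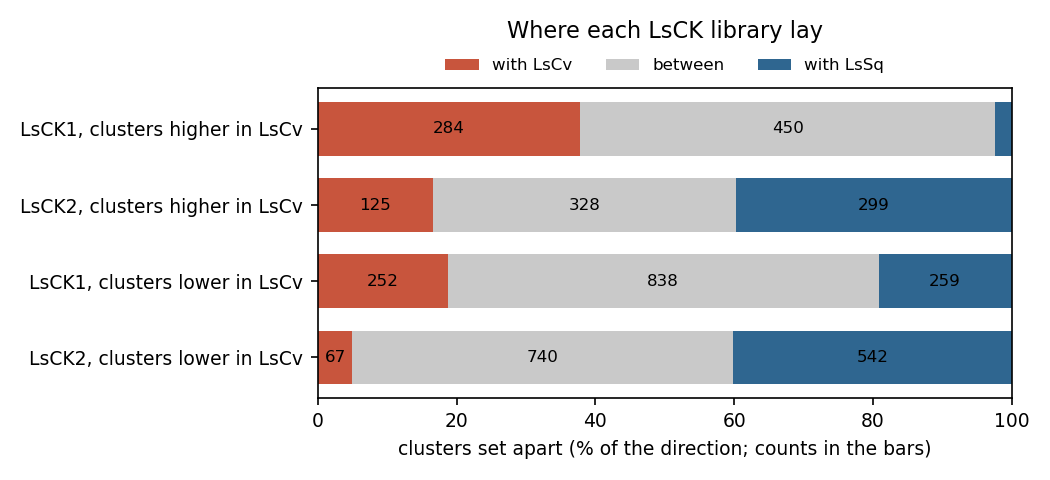
Placement of each LsCK library (rows) over the set-apart clusters of each direction, as a percentage of the direction (horizontal axis) with counts of clusters in the bars. LsCK1 lay with LsSq in 18 of the 752 clusters higher in LsCv, where LsCK2 did so in 299, and "between" is the longest bar in all 4 rows.

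The controls were placed unlike in 465 of the 752 higher clusters and 634 of the 1349 lower ones. Where LsCv was higher, both lay between the extracts in 205 clusters, both with LsCv in 76 and both with LsSq in 6, and those placed unlike included 200 with LsCK1 between and LsCK2 with LsSq and 93 with LsCK1 with LsCv and LsCK2 with LsSq. Where LsCv was lower, both lay between in 496, both with LsSq in 188 and both with LsCv in 31. Among the set-apart clusters, an extract with both controls on the other side was more often the lower one: LsCv stood alone as the lower extract in 188 clusters and as the higher one in 6, and LsSq as the lower one in 76 and as the higher one in 31. Over all clusters without overlap the difference was small for LsCv and was not seen for LsSq. There LsCv stood alone as the lower extract in 1259 (14.3% of the clusters lower in LsCv) and as the higher one in 775 (11.4% of the clusters higher in LsCv). LsSq stood alone as the lower one in 806 (11.9%) and as the higher one in 1063 (12.1%). The rule favours the extract whose replicates lie farther apart, and in the higher clusters this typical distance was 0.69 in LsCv and 0.33 in LsSq. With the line between the extract means cut into 3 equal parts instead, which does not use the spread, the counts were 310 and 49 for LsCv and 93 and 80 for LsSq. The p of the rule came from a fit that held the controls, so likeness between them could help a cluster to be set apart. Over clusters without overlap that DESeq2 called on the 4 treated libraries, LsCv stood alone as the lower extract in 86 of 1250 and as the higher one in 27 of 1531. LsSq did so as the lower one in 41 of 1531 and as the higher one in 32 of 1250. With 1 treated library left out LsCv stood alone more often as the lower extract in each case, and so did LsSq, although for LsSq few clusters remained without LsCv replicate 1 (10 lower and 1 higher) or LsCv replicate 2 (7 and 4).

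The 188 clusters that were low in LsCv alone had low levels. Their median CPM was 0.166 and 0.233 in LsCv, 1.42 and 1.87 in LsSq, and 2.08 and 2.18 in LsCK. The 76 clusters that were low in LsSq alone had median CPM of 3.23 and 1.86 in LsCv, 0.553 and 0.561 in LsSq, and 2.64 and 2.56 in LsCK. Clusters with both controls in the middle had higher levels, with a median mean CPM of 4.90 where LsCv was higher and 4.44 where it was lower.

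Placement also moved with level and size. Among higher clusters, the share in which LsCK2 lay with LsSq was 13.6% below 1 CPM, 31.2% from 1 to 10 CPM, 56.4% from 10 to 100 CPM and 56.0% at 100 CPM or more, and its median position over these levels was 0.47, 0.36, 0.05 and 0.05. LsCK1 kept a median position of 0.64 to 0.74 over the same levels. Among lower clusters it was LsCK1 that moved, with a median position of 0.39, 0.53, 0.66 and 0.81 from the lowest to the highest level, while LsCK2 stayed between 0.19 and 0.34. At 100 CPM or more the untreated libraries were thus split in both directions, LsCK1 towards LsCv and LsCK2 towards LsSq. By size, LsCK1 lay with LsSq in 12.2% of the lower clusters with a log2 change of 1.5 to 3, in 30.7% of those of 3 to 5 and in 40.9% of those of 5 or more. For LsCK2 these shares were 36.2%, 44.7% and 53.9%. Size and level cannot be told apart here. The 232 lower clusters at 5 or more had a median level of 0.265 CPM, and 217 of them had no count in LsCv, so that their size was not measured. Among all lower clusters below 1 CPM, LsCK1 lay with LsSq in 38.1% and LsCK2 in 50.6%.

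**Figure D4:**
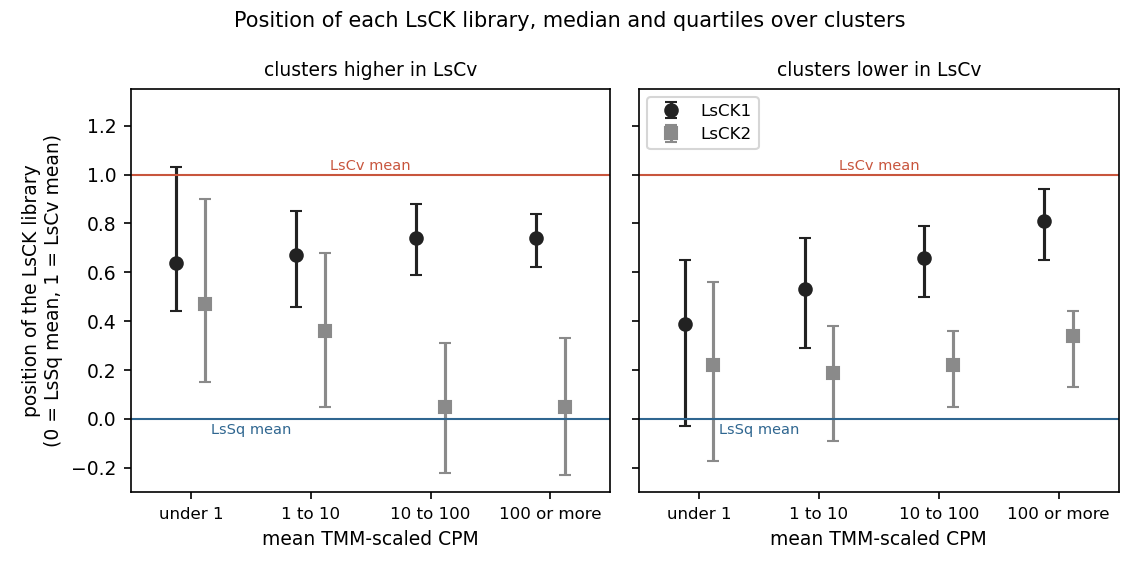
Position of LsCK1 (circles) and LsCK2 (squares) between the LsSq mean (0) and the LsCv mean (1) on log2(CPM + 0.5), as median with quartiles over the set-apart clusters, by mean TMM-scaled CPM (horizontal axis) and by direction (panels). At 100 CPM or more LsCK1 is at 0.74 and 0.81 and LsCK2 at 0.05 and 0.34.

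The replicates of LsCv took unequal parts in these differences. LsCv1 was the higher replicate in 65.0% of the clusters higher in LsCv and in only 23.8% of those lower in LsCv, beside 49.3% of all clusters tested, so that LsCv1 was the replicate farther from LsSq. LsCK1 was likewise higher than LsCK2 in 78.3% and 20.7% of them. LsSq1 was higher than LsSq2 in 37.6% of the clusters higher in LsCv and 50.3% of the lower ones. LsCv1 also had the lowest TMM scaling factor, 0.836 against 0.995 to 1.09 in the other libraries. Its 10 most counted clusters held 6.79% of its counts, against 3.54% to 4.54% in the other libraries. Without LsCv1 the rule gave 622 higher and 1124 lower clusters, of which 355 and 653 were among those given with all libraries. Without LsCv2 it gave 978 higher and 2296 lower clusters, of which 507 and 964 were shared.

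Turning to the named clusters, all 12 phytohormone clusters that the study listed for LsCv against LsSq met the set-apart rule, 4 with LsCv higher and 8 lower. The study chose this list on these libraries by their difference, so the count is not independent evidence and the values below are a description. Their unadjusted p-values in edgeR were between 0.0012 and 0.0365 and their adjusted p-values between 0.229 and 0.284. DESeq2 on the 4 treated libraries called all 12. Without LsCv replicate 1 only 5 of the 12 met the rule, and without LsSq replicate 1 7 did. Without LsCv replicate 2 the log2 fold changes of CKI1, LOG3 and EMS1/MSP1 grew to -2.88, -2.11 and -2.95, and that of YUCCA10 to 3.02. No value over these clusters is compared between genes, because transcript lengths were not used.

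Among the 5 cytokinin clusters, those for the first step of synthesis, for activation and for signalling were lower in LsCv. Those for the later hydroxylation step of synthesis and for storage as O-glucosides were higher, so that synthesis went both ways. IPT3 (Cluster-9839.0), an isopentenyltransferase that makes isopentenyl-type cytokinins, had 0 counts in both LsCv libraries, 146 and 5 in the LsSq libraries and 20 and 5 in the LsCK libraries. The signal in LsSq came from replicate 1 alone, and LsSq2 was as low as LsCK2. Against 3 counts per library in LsCv, the mean of the LsSq libraries was at least 23.4-fold higher for IPT3 (unadjusted p = 0.0128). This bound rests on LsSq1 and does not hold for LsSq2, whose 5 counts were close to the limit. LOG3 (Cluster-15809.14844), a phosphoribohydrolase that frees the active cytokinin base, had 4.68 and 9.42 CPM in LsCv, 21.2 and 19.2 CPM in LsSq and 6.94 and 13.4 CPM in LsCK. LsCK1 was among the LsCv values and LsCK2 between the extracts. LOG3 was 2.87-fold lower in LsCv (log2 fold change -1.52 ± 0.47 SE, unadjusted p = 0.016), which was over 0.05 without LsCv replicate 1 or LsSq replicate 1, with a highest value of 0.0917.

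CKI1 (Cluster-15809.3160), a histidine kinase that activates the cytokinin signalling pathway, had 2.99 and 6.62 CPM in LsCv, 22.9 and 21.1 CPM in LsSq and 9.76 and 39.3 CPM in LsCK. LsCK2 was above both LsSq libraries and LsCK1 below them. The log2 fold change was -2.19 ± 0.70 (SE, unadjusted p = 0.0172), a 4.57-fold lower level in LsCv, and the unadjusted p was 0.113 without LsCv replicate 1. The cytokinin hydroxylase (Cluster-16226.0), the P450 enzyme that turns isopentenyl-type into zeatin-type cytokinins, had 4.54 and 6.06 CPM in LsCv, 0.293 and 1.22 CPM in LsSq and 3.97 and 4.39 CPM in LsCK. Both controls lay between the extracts and close to LsCv. It was 6.97-fold higher in LsCv (log2 fold change 2.80 ± 0.70 SE, unadjusted p = 0.00579). Its size depended on the LsSq replicates, with a log2 fold change of 2.10 without LsSq replicate 1 and 4.15 without LsSq replicate 2, and unadjusted p-values of 0.0277 or less in the 15 edgeR alternatives. ZOG (Cluster-3690.0), the zeatin O-glucosyltransferase that forms storage glucosides, had 11.8 and 22.0 CPM in LsCv, 2.15 and 1.70 CPM in LsSq and 11.0 and 3.8 CPM in LsCK. LsCK1 was just below LsCv1 and LsCK2 nearer to LsSq. ZOG was 8.77-fold higher in LsCv (log2 fold change 3.13 ± 0.62 SE, unadjusted p = 0.00173), and its unadjusted p stayed at 0.0175 or less in the 15 edgeR alternatives.

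The 3 auxin clusters went both ways. YUCCA10 (Cluster-14797.0), a flavin-dependent monooxygenase of auxin synthesis, had 15.4 and 4.13 CPM in LsCv, 2.24 and 1.53 CPM in LsSq and 7.28 and 1.64 CPM in LsCK. LsCv1 was far above LsCv2, and the controls split in the same way, LsCK1 lying with LsCv and LsCK2 with LsSq. The log2 fold change was 2.37 ± 0.89 (SE, unadjusted p = 0.0334), and without LsCv replicate 1 it was 1.16 with an unadjusted p of 0.251. YUCCA5 (Cluster-8784.0), another member of this enzyme family, had 5.57 and 3.03 CPM in LsCv, 0.911 and 0.646 CPM in LsSq and 2.83 and 0.383 CPM in LsCK. LsCK1 was just under LsCv2 and LsCK2 was below both LsSq libraries. YUCCA5 was 5.49-fold higher in LsCv (log2 fold change 2.46 ± 0.94 SE, unadjusted p = 0.0365), and leaving out any 1 of the 4 treated libraries put its unadjusted p between 0.0525 and 0.151. PINOID2 (Cluster-6384.0), a protein kinase that regulates auxin transport, had 2.36 and 4.39 CPM in LsCv, 13.9 and 10.2 CPM in LsSq and 5.62 and 9.41 CPM in LsCK. Both controls were in the gap between the extracts. PINOID2 was 3.57-fold lower in LsCv (log2 fold change -1.83 ± 0.47 SE, unadjusted p = 0.00631).

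All 4 clusters for peptide signals and their receptors were lower in LsCv. EPF/EPFL (Cluster-15809.11964), a secreted epidermal patterning factor of the family that guides stomatal spacing, had 0.922 and 1.26 CPM in LsCv, 6.28 and 4.69 CPM in LsSq and 2.40 and 6.79 CPM in LsCK. LsCK2 was above both LsSq libraries. It was 5-fold lower in LsCv (log2 fold change -2.32 ± 0.61 SE, unadjusted p = 0.00756, and 0.051 without LsCv replicate 1). EMS1/MSP1 (Cluster-11176.0), a receptor kinase known for the binding of TPD1-like (TDL) peptides in anthers of other species, had 2.07 and 5.33 CPM in LsCv, 19.1 and 12.7 CPM in LsSq and 5.80 and 10.7 CPM in LsCK. Both controls lay between the extracts, LsCK1 next to LsCv2. The log2 fold change was -2.10 ± 0.57 (SE, unadjusted p = 0.00831).

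PXY (Cluster-15809.1007), the receptor of the TDIF peptide that maintains vascular stem cells, had 3.87 and 4.99 CPM in LsCv, 17.1 and 13 CPM in LsSq and 15.4 and 14.0 CPM in LsCK. Both controls lay with LsSq, well above LsCv. Among the 12 clusters IPT3 alone also had both controls placed with LsSq, but its LsCK2 and LsSq2 libraries held only 5 counts each. PXY was 3.38-fold lower in LsCv (log2 fold change -1.76 ± 0.33 SE), with the smallest unadjusted p of the list, 0.0012. PSKR1 (Cluster-10341.0), the receptor of the growth-promoting phytosulfokine peptide, had 8.33 and 12.3 CPM in LsCv, 45.6 and 20.5 CPM in LsSq and 11.0 and 14.7 CPM in LsCK. Here LsSq1 stood above the other 5 libraries, and the controls were next to LsCv. The log2 fold change was -1.68 ± 0.46 (SE, unadjusted p = 0.00858), and it was -1.0 without LsSq replicate 1.

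**Figure D5:**
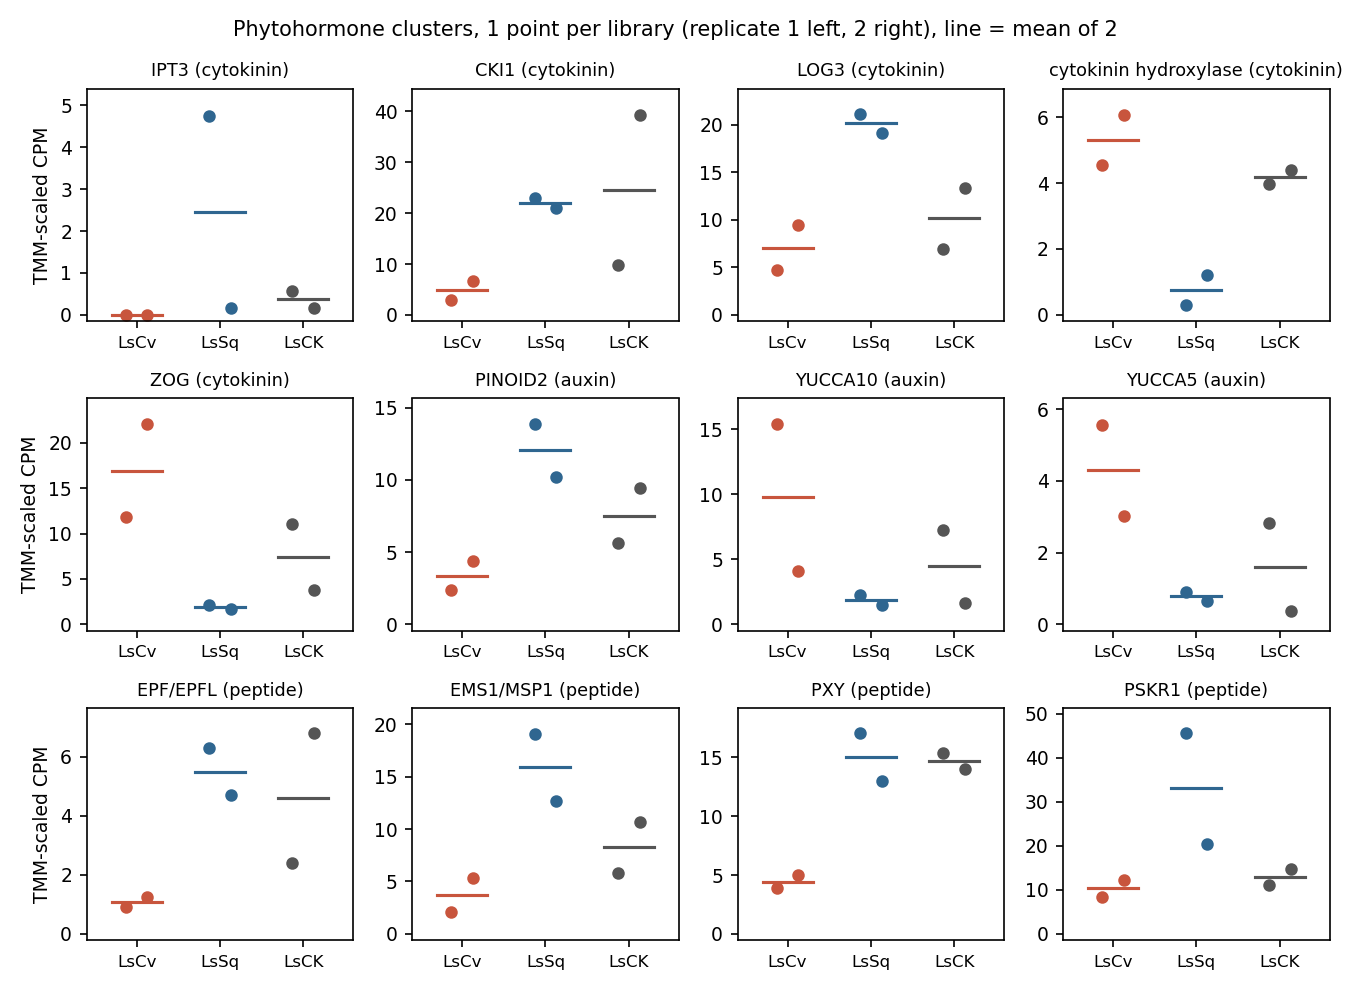
TMM-scaled CPM (vertical axes, linear) of the 12 phytohormone clusters in LsCv, LsSq and LsCK, 1 point per library (replicate 1 left, replicate 2 right) with a line at the mean of 2. The LsCv points do not overlap those of LsSq in any panel; PXY has both LsCK points with LsSq (15.4 and 14.0), and IPT3 rests on 1 LsSq library (4.75 CPM).

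Over the 12 clusters LsCK1 lay with LsCv in 3, between in 7 and with LsSq in 2, and LsCK2 lay with LsCv in 0, between in 6 and with LsSq in 6. By role, LsCK2 lay with LsSq for YUCCA10, YUCCA5, CKI1, IPT3, EPF/EPFL and PXY. Both controls lay in the gap for the hydroxylase, ZOG, EMS1/MSP1 and PINOID2. YUCCA10 alone had LsCK1 with LsCv and LsCK2 with LsSq. The 12 are part of the set-apart clusters, so their placement is no separate observation.

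The study also listed 10 phytohormone clusters for a change under both extracts, and these were close to all clusters tested. None of the 10 met the set-apart rule, beside 7.46% of all clusters tested, too few clusters to differ from that share. None had an unadjusted p under 0.05 in edgeR, beside 6.26% of all with LsCv higher and 9.71% with LsCv lower. The extracts did not overlap in 5 of the 10, beside 55.4% of all. The median absolute log2 fold change of the 10 was 0.58, beside 0.59 over all clusters tested. The cluster with the largest difference was PNP (Cluster-6996.0), a plant natriuretic peptide precursor, with 23.8 and 2.46 CPM in LsCv, 0.260 and 1.05 CPM in LsSq, and 3.17 and 0 CPM in LsCK. LsCv1 stood far above the other libraries. The log2 fold change of PNP was 4.32 ± 1.91 (SE, unadjusted p = 0.0598), and DESeq2 on the 4 treated libraries called it (adjusted p = 0.000247). The auxin response repressors IAA27 (Cluster-8434.0) and IAA17 (Cluster-5788.0) did not overlap between the extracts. IAA27 had 0.516 and 2.36 CPM in LsCv, 4.39 and 6.53 CPM in LsSq and 2.97 and 25.5 CPM in LsCK (log2 fold change -1.91 ± 1.07 SE, unadjusted p = 0.118). IAA17 had 1.48 and 2.63 CPM in LsCv, 4.00 and 5.74 CPM in LsSq and 3.37 and 17.8 CPM in LsCK (log2 fold change -1.24 ± 0.78 SE, unadjusted p = 0.155). LsCK2 was the highest library for both.

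PILS7 (Cluster-4711.0), an auxin transporter, showed how replicates of each group could lie farther apart than the extracts, with 11.5 and 0.865 CPM in LsCv, 4.16 and 0.442 CPM in LsSq and 23.5 and 0.314 CPM in LsCK. Replicate 1 was the higher in every group. The remaining 6 clusters of this list had log2 fold changes between -0.68 and 0.48, with standard errors of 0.42 to 1.28. These are CIF, a precursor of Casparian strip integrity factor peptides, the receptor kinases THESEUS and FERONIA, the brassinosteroid signalling kinase BSK, a type-B response regulator of cytokinin signalling, and a PYL4-like abscisic acid receptor.

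Of the 9 clusters chosen by the study for qRT-PCR, 1 was set apart, beside 7.46% of all clusters tested. These are too few clusters to differ from that share. The member set apart was the F-box cluster (Cluster-15937.0), whose primers are given above. F-box proteins select other proteins for ubiquitination. It had 0 counts in both LsCv libraries, 8 and 33 in the LsSq libraries and 10 and 15 in the LsCK libraries. The counts were low in all libraries, but the controls were both at the LsSq level. Against 3 counts per library in LsCv, the mean of the LsSq libraries was at least 6.57-fold higher for the F-box cluster (unadjusted p = 0.0106). This bound rests mostly on LsSq2, with 33 counts, and does not hold for LsSq1, with 8. The FAR1-RELATED SEQUENCE 5-like cluster (Cluster-15809.7654), of a family of transcription factors derived from transposases, had 0.332 and 1.03 CPM in LsCv, 0.0325 and 0.170 CPM in LsSq and 1.57 and 7.67 CPM in LsCK. LsSq was lowest and the controls were above both extracts (log2 fold change 2.72 ± 1.18 SE, unadjusted p = 0.0561). The other 7 had log2 fold changes between -1.38 and 1.73 and unadjusted p-values of 0.149 or more.

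An extensin-2-like cell wall glycoprotein (Cluster-15809.8681) differed more between replicates than between extracts, with 138 and 3.66 CPM in LsCv, 157 and 16.4 CPM in LsSq and 655 and 10.6 CPM in LsCK. Its replicate 1 was higher in every group, as for PILS7. The reference cluster (Cluster-15809.13020) had 19.1 and 20.4 CPM in LsCv, 19.7 and 20.2 CPM in LsSq and 16.4 and 15.7 CPM in LsCK. Its log2 fold change was -0.01 ± 0.25 (SE, unadjusted p = 0.963).

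Some clusters were counted with one extract only, meaning 0 counts in both libraries of the other extract and at least 10 in each library of the first. There were 46 such clusters in LsCv and 148 in LsSq, none of them with a name. The control libraries treated these sets differently. Of the 148 clusters counted in LsSq and not in LsCv, 113 (76.4%) were counted in both controls, 17 in LsCK1 only, 10 in LsCK2 only and 8 in neither. Of the 46 counted in LsCv and not in LsSq, 21 (45.7%) were counted in both controls, 16 in LsCK1 only, 3 in LsCK2 only and 6 in neither. Only 44 of the 148 and 2 of the 46 reached 10 counts in both controls, so that presence in the controls mostly rests on a few counts. Most were near the limit, with a median of 13 counts for the lower replicate of LsSq and 12.5 for that of LsCv, and the number changed several-fold with the limit (241 in LsCv and 490 in LsSq at 5 counts, 5 and 36 at 20 counts).

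Among the clusters without a name, those with the smallest unadjusted p were chosen in each direction. Cluster-15809.5222 had 0 counts in both LsCv libraries, 391 and 373 in LsSq and 352 and 380 in LsCK. Cluster-12869.0 likewise had 0 counts in both LsCv libraries, 206 and 315 in LsSq and 427 and 323 in LsCK. LsCv was thus alone without these transcripts. Against 3 counts per library Cluster-15809.5222 was at least 121-fold lower in LsCv and Cluster-12869.0 at least 82.7-fold lower, with adjusted p-values of 0.158 and 0.163 in edgeR and counts that were whole in every library.

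Where LsCv was higher, the smallest p-values belonged to clusters with graded levels. Cluster-19213.1 had 19.4 and 8.95 CPM in LsCv, 0.683 and 0.714 CPM in LsSq and 6.71 and 4.98 CPM in LsCK (log2 fold change 4.34 ± 0.53 SE). Cluster-15809.2376 had 22.3 and 14.2 CPM in LsCv, 1.37 and 1.90 CPM in LsSq and 6.25 and 8.95 CPM in LsCK (log2 fold change 3.48 ± 0.43 SE). Both had an adjusted p of 0.229, and the controls lay in the gap between the extracts for both. Without LsCv replicate 1 the log2 fold change of Cluster-19213.1 was 3.71. All of these unnamed clusters met the rule in each of the 15 edgeR alternatives.

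The clusters with the highest counts in LsCv and none in LsSq showed another pattern of the controls. The cluster with the most counts had 377 and 694 in LsCv, 0 and 0 in LsSq, and 186 and 0 in LsCK. The next had 338 and 295 in LsCv, 0 and 0 in LsSq, and 174 and 0 in LsCK, and the third had 213 and 233 in LsCv, 0 and 0 in LsSq, and 195 and 0 in LsCK. In all 3, chosen after their values were seen, LsCK1 was with LsCv and LsCK2 with LsSq, and the level in LsCv was at least 185-, 112- and 78.2-fold higher than 3 counts per library in LsSq. For these clusters the untreated libraries differed from each other in the way the extracts did.

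The study's supplementary list, held here in part, has 291 clusters with a lettuce description, chosen by the study for a change of like direction under both extracts. Of these 269 were tested. In edgeR 0 were set apart, beside 7.46% of all clusters tested, and 0 had an unadjusted p under 0.05. Their log2 fold changes lay between -0.58 and 0.41, with no overlap between extracts in 36 clusters (13.4%), beside 55.4% of all clusters tested. The count filter used all 6 libraries, so a cluster could pass it through LsCK with few counts under both extracts. Such a cluster could hardly be set apart. Levels of the list were not examined, so like expression cannot be told apart here from few counts under both extracts. The medians that follow have the same limit. By keyword, the medians were -0.16 for 26 receptors and kinases, -0.07 for 14 transporters, -0.08 for 18 oxidoreductases, -0.03 for 17 clusters of transcription and chromatin, -0.23 for 11 cell wall clusters and -0.17 for 25 defence clusters. As the study chose the list by its change against LsCK in the same direction under both extracts, these values are a description.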

How the data were processed

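RNA from lettuce leaves was sequenced in 6 libraries, 2 each of LsCv, LsSq and LsCK, grouped by the labels. The authors assembled the reads with Trinity, grouped transcripts with Corset and counted them with RSEM, using a kit that does not mark strand. The deposited values are expected counts of each cluster in each library, not normalized, and columns of per-sample values not used numbered 0. The processing notes of the submitters also name CASAVA 1.8 and DESeq2 1.26.0.

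After rounding, edgeR 4.0.16 in R 4.3.3 was run on these counts (filterByExpr, TMM, glmQLFit and glmQLFTest, 1 fit of all 6 libraries, default prior count, Benjamini-Hochberg adjustment over 28157 clusters, threshold 0.05). Standard errors follow from each log2 fold change divided by the square root of its F value. Controls were placed on log2(CPM + 0.5). Levels below 3 counts were not resolved, and intervals are 95% Wilson intervals. DESeq2 1.42.0 served as an alternative. Code was tested on simulated data. Alternatives covered scaling, filters, tool, libraries, replicate block, robust estimation, limits and each library left out. Figures were drawn with matplotlib 3.10.9.

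Named clusters were the study's phytohormone and qRT-PCR clusters, described set-apart clusters (0 were found), the 2 unnamed set-apart clusters of smallest p in each direction and named clusters counted with one extract only (0 were found). Members and lists were chosen with earlier results of these data known. The assembly and gene coordinates were not used here.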

Additional observations from a re-analysis of the deposited data

Results flagged for a closer look

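In 205 set-apart clusters higher in LsCv and 496 lower in LsCv, both LsCK libraries lay between the extracts, so that LsCv and LsSq were on opposite sides of untreated leaves in every library. Over all clusters without overlap this was so in 687 of 6775 (10.1%) and 1294 of 8818 (14.7%), and a limit on the fold favours it by selecting wide gaps. With the line between the extract means cut into 3 equal parts, both controls were in the middle part in 56 of the higher and 101 of the lower set-apart clusters. Among named clusters this was so for the cytokinin hydroxylase (log2 fold change of LsCv over LsSq 2.80), ZOG (3.13), EMS1/MSP1 (-2.10) and PINOID2 (-1.83), and among unnamed ones for Cluster-19213.1 (4.34) and Cluster-15809.2376 (3.48). The opposite position was not tested on its own. The LsCv versus LsSq contrast of these 6 clusters had adjusted p-values over 0.05 in the edgeR fit of all 6 libraries, while with the replicate block on the 4 treated libraries the cytokinin hydroxylase (0.0489), ZOG (0.0281), Cluster-19213.1 (0.0226) and Cluster-15809.2376 (0.0258) were under it in edgeR.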

How the results depend on the processing

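The 0 calls of edgeR held under its alternatives except for the replicate block on the 4 treated libraries, which called 1135 clusters (611 higher, 524 lower); the replicate block on all 6 libraries gave 0. Replicate differences correlated between groups by 0.218 (LsCv and LsSq), 0.231 (LsCv and LsCK) and 0.260 (LsSq and LsCK), but the labels do not say that a number marks a shared batch. DESeq2 called 1468 clusters on 6 libraries and 2832 on 4. The set-apart counts were 1351 higher and 2247 lower at a fold limit of 1, 443 and 766 at 2, and 1447 and 2172 without a limit on p. Leaving out 1 library gave 349 to 979 higher and 802 to 2296 lower clusters, and 5 to 12 of the 12 phytohormone clusters.

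Without a filter 45.3% of clusters had no overlap. Clusters counted in LsCv only numbered 241 at 5 counts, 5 at 20 counts and 94 to 459 with 1 treated library left out, and those counted in LsSq only 490, 36 and 380 to 698. These counts, the leave-outs of the placement and the count of phytohormone clusters were added after the data had been seen. A library left out relaxes the requirement on its extract.

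Placement shares moved past their intervals as follows. With the line cut into 3 equal parts, LsCK1 lay with LsCv in 55.9% and with LsSq in 10.5% of the higher clusters (LsCK2 with LsSq 58.5%), and in 35.5% and 29.7% of the lower ones (LsCK2 9.86% and 66.5%). Without scaling LsCK1 lay with LsCv in 41.8% of the higher clusters and LsCK2 in 20.3%, and LsCK2 lay with LsSq in 35.8% of the higher and 43.5% of the lower ones. At a fold limit of 1, LsCK1 lay with LsSq in 3.92% of the higher clusters, and with LsCv in 24.6% and with LsSq in 15.8% of the lower ones, which became 12.3% and 25.7% at 2 (LsCK2 with LsSq 43.2%). Over the clusters called by DESeq2, LsCK2 lay with LsCv in 5.88% and with LsSq in 62.3% of the higher ones, and LsCK1 in 27.4% and 9.92% of the lower ones. With 1 treated library left out, LsCK1 lay with LsCv in 3.27 to 35.2% and with LsSq in 0.356 to 10.3% of the higher clusters, and LsCK2 in 3.17 to 28.6% and 6.23 to 50.3%. In the lower clusters the ranges were 1.13 to 19% and 8.68 to 28.6% for LsCK1, and 0.305 to 5.36% and 21.3 to 44.5% for LsCK2. The cause of these shifts was not tested.

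Of the named clusters, the 12 of the phytohormone list for this comparison, the F-box and the unnamed clusters kept their direction in all alternatives. Directions turned for 8 other named clusters, none of them with an unadjusted p under 0.05 in the edgeR fit described above. With the replicate block on the 4 treated libraries the unadjusted p of PILS7 was 0.0283 in edgeR. The reference cluster (Cluster-15809.13020) was at 0.05 under DESeq2 (both fits) and DESeq2's size factors, 0.04 with edgeR on the 4 treated libraries with and without the replicate block, and 0.01 without a filter. Leaving out a library gave -0.06 to 0.07 for it, -0.60 to 2.62 for the fatty acid synthase-like cluster, -0.73 to 0.91 for the type-B regulator, -0.87 to 0.04 for THESEUS, -4.53 to 2.11 for the extensin-2-like cluster, -1.50 to 0.88 for CIF, -1.34 to 1.60 for FERONIA and -1.37 to 3.78 for PILS7. Values of 3 counts or fewer were not resolved at these depths, and each group had 2 libraries only.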
